A study of Mus musculus with 4 samples.

Results

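The 46 genes described here encode the machinery that copies DNA and the enzymes that supply its nucleotides. They were taken by a fixed list of names from the 19946 genes with a feature on the array that carried only their symbol. All 46 were measured. The cells were MC3T3-E1, an established line of pre-osteoblasts from the calvaria of C57BL/6 mice. They were kept in proliferation medium, an alpha minimum Eagle's medium with 1% fetal bovine serum per the labels' protocols, either untreated or with the selective serotonin reuptake inhibitor citalopram at 0.0001 mol per litre (100 µM). RNA was taken at day 3 or day 7 and hybridised to an Affymetrix array, with 1 array for each of the 4 groups: control at day 3, citalopram at day 3, control at day 7 and citalopram at day 7. Labels call the control untreated and name no vehicle. The question the design puts is how citalopram changes expression against control at each day.

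A chromosome is copied once per cell cycle. The origin recognition complex, with Cdc6 and Cdt1, loads the MCM helicase onto origins, and the Dbf4-dependent kinase, Cdc45 and the GINS complex then turn it into an active helicase. DNA polymerase alpha with primase lays the primers, the epsilon and delta polymerases extend them, and the sliding clamp PCNA, placed by replication factor C, holds the polymerases on DNA. Ribonucleotide reductase, thymidylate synthase and thymidine kinase supply the deoxynucleotides. Most of these genes are transcribed at the boundary of G1 and S phase under E2F factors, so a proliferating pre-osteoblast culture expresses them and a culture that has stopped dividing expresses them less. In an RNA extract of a whole culture, fewer cells in S phase and less of a transcript per cell cannot be told apart.

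All 46 genes lay above the floor, the 40th percentile of genes on an array (5.95 to 6.01 on the log2 scale). At day 3 the median over the 46 genes was 10.21 for control and 10.09 for citalopram. The day 7 medians were 10.11 and 9.89. Over the 12420 genes that passed the floor on any array, the same medians were 9.03, 9.06, 9.02 and 9.04. The replication genes were therefore lowest on the array of citalopram at day 7, while the medians over the 12420 genes differed little. Over all features on an array the medians, in the same order, were 6.4958, 6.5036, 6.6035 and 6.6585. By that measure the array of citalopram at day 7 was the highest. No group had a replicate, so a difference at a single day has no error and no test, and precision is limited to what 4 arrays can give.

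**Figure D1:**
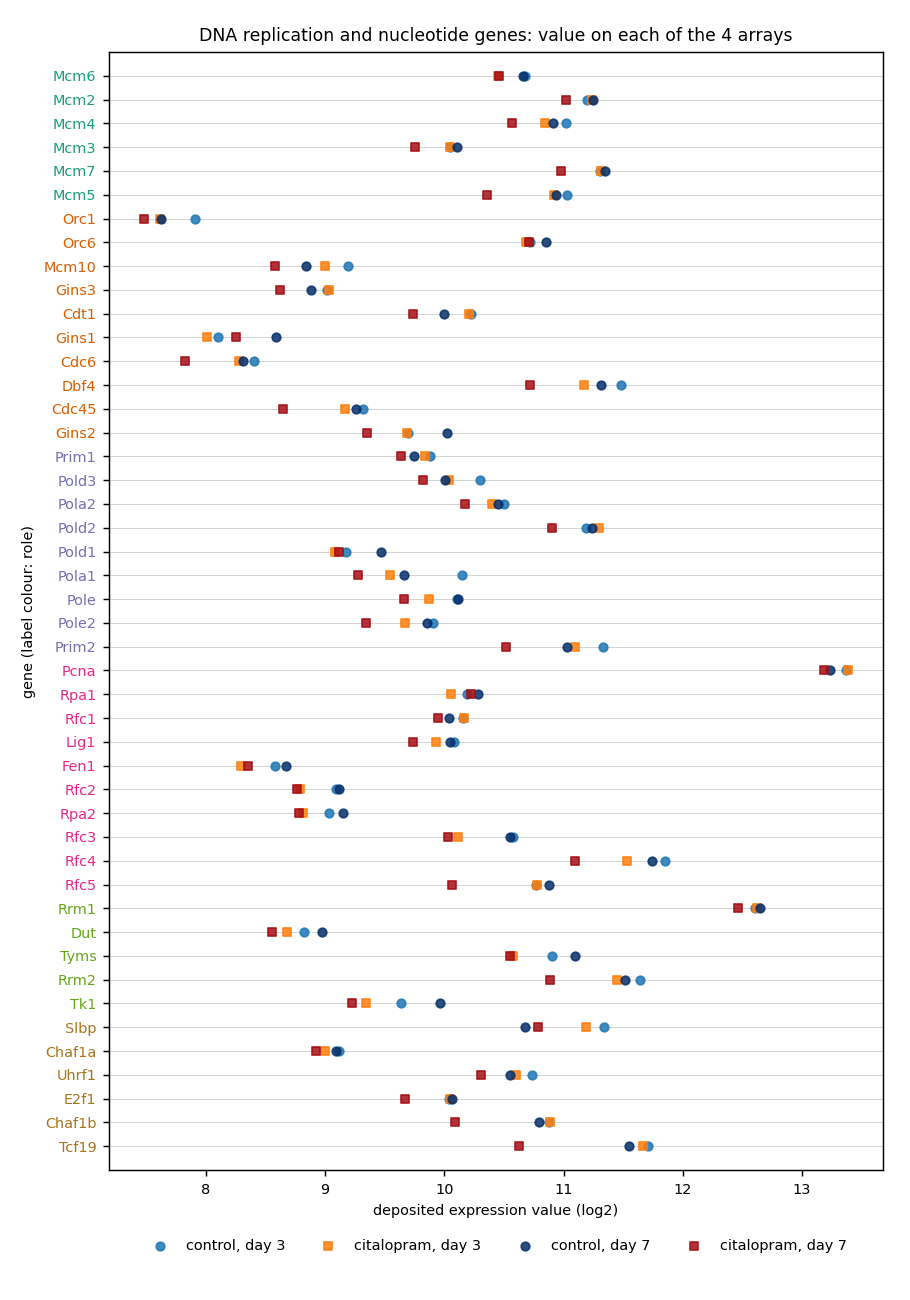
Deposited log2 expression value (horizontal axis) of each of the 46 genes (rows, label colour by role) on the 4 arrays, 1 point an array, with circles for control and squares for citalopram. The dark red square, citalopram at day 7, is the leftmost point for most genes, and Rfc5, Chaf1b and Tcf19 show the 3 other arrays close together to its right.

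At day 3, 36 of the 46 genes were lower with citalopram, against 42.3% of 12200 genes tested at that day. Their median difference was -0.14 on the log2 scale, beside 0.03 over all genes, and the range ran from -0.61 to 0.11. At least 0.322 lower on the log2 scale, the smaller of the 2 fold thresholds used, were 3 genes (2.7% of all genes), Pola1, Rfc3 and Tyms. Only Pola1 was at least 1.5-fold lower (0.303%). Higher by these amounts were 0 members, against 5.01% and 0.5% of all genes.

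At day 7, 45 of the 46 genes were lower with citalopram, against 48.7% of 12172 genes, and the exception was Slbp. The median difference was -0.35, beside 0.00 over all genes. At least 0.322 lower were 27 genes (6.07% of all genes), and 9 passed 1.5-fold (0.945%): Tcf19, Rfc5, Tk1, Chaf1b, Gins2, Rfc4, Rrm2, Cdc45 and Dbf4. Again 0 members were higher by these amounts, against 5.89% and 0.559% of all genes. After each array was centred on its median, 60.9% of all genes were lower at day 7, and 45 members still were.

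For 26 of the 46 genes both citalopram arrays lay below both control arrays, against 11.6% of the 12420 genes. Lower at both days were 35 members (22.2% of all genes). The difference was more negative at day 7 than at day 3 for 40 of 46 (54.8% of all genes); the 6 others were Orc1, Mcm6, Pold3, Pola1, Rpa1 and Slbp. Across the 46 genes, which are not independent and share the same arrays, the citalopram differences at day 3 and day 7 correlated weakly. Pearson's r was 0.146 and Spearman's rho 0.241, beside 0.173 and 0.129 over the 12420 genes, so the weak correlation was not particular to the members.

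**Figure D2:**
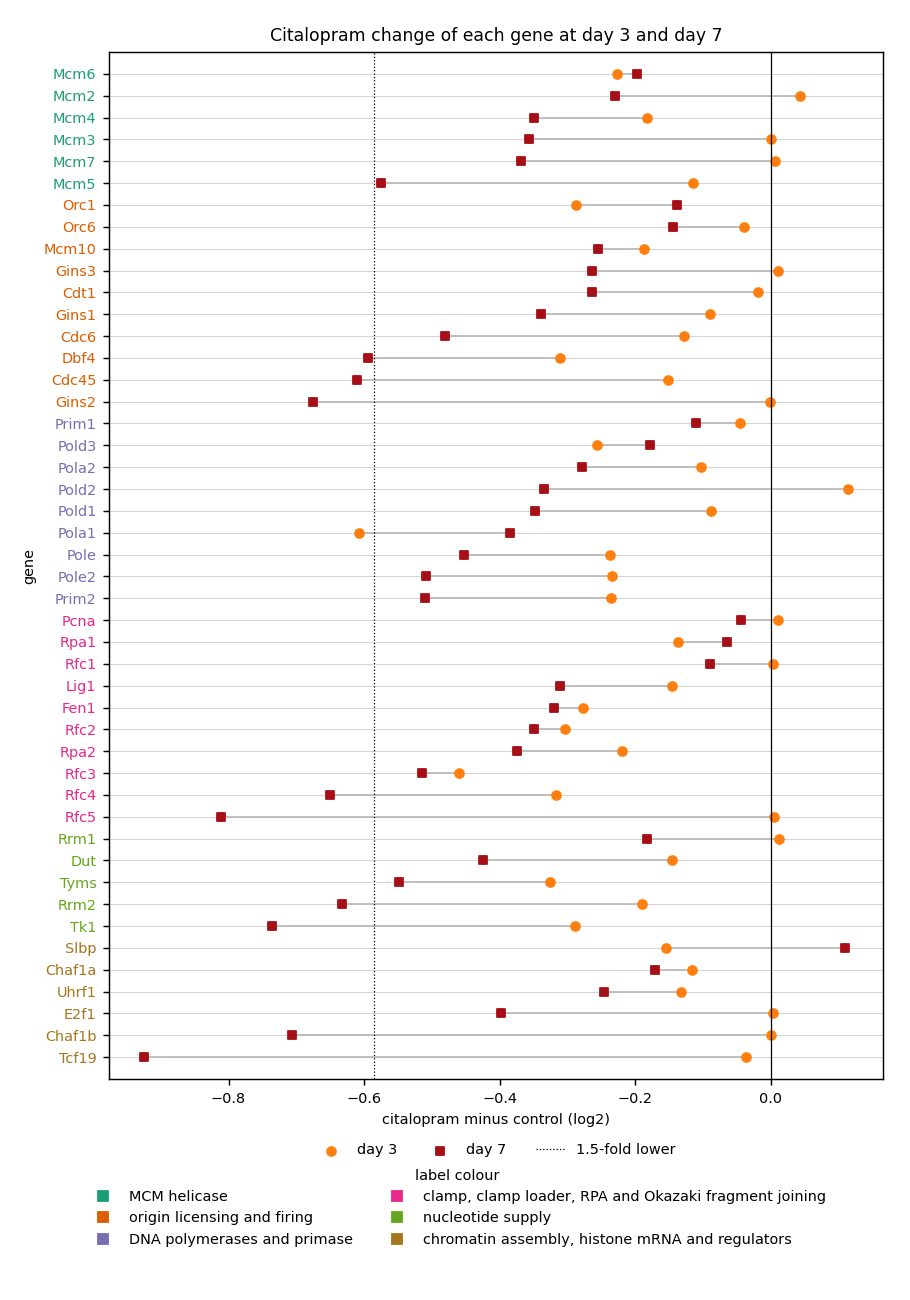
Citalopram minus control on the log2 scale (horizontal axis) for each of the 46 genes (rows, label colour by role), with an orange circle for day 3 and a dark red square for day 7; the dotted line marks 1.5-fold lower. At day 7, 45 squares lie left of zero and 9 lie past the dotted line, while at day 3 only Pola1 lies past it.

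The only test the design allows treats the days as replicates of a treatment. Its residual is the difference between the citalopram changes at day 3 and day 7, so a change at only 1 day counts partly as error. A limma fit with additive terms for treatment and day, which leaves 1 residual degree of freedom per gene, called 0 of the 46 genes and 0 of all 12420 for citalopram. The smallest adjusted p among the members was 0.313, for Rfc3. At an unadjusted p under 0.05, 19 of the 46 were lower and 0 higher, against 3.69% and 5.32% of all genes. The standard errors rest mostly on a variance pooled over all genes (7.16 prior against 1 residual degree of freedom). Rfc3 differed by -0.49 ± 0.10 (SE, mean of both days), Pola1 by -0.50 ± 0.11 and Tk1 by -0.51 ± 0.13. Tcf19 (-0.48 ± 0.19), Rfc5 (-0.40 ± 0.18) and Chaf1b (-0.35 ± 0.16), which differed mainly at day 7, had larger standard errors. The call depended on the scaling. After quantile normalization limma called Pola1 (adjusted p 0.0265), Rfc3 (0.0270), Tk1 (0.0288), Rfc4 (0.0360) and Dbf4 (0.0409) lower, which are 5 of 87 genes called lower (0.7% of all genes). With arrays centred on their medians it called Pola1, Rfc3, Tk1 and Rfc4, with adjusted p from 0.0324 to 0.0422, of 70 genes called lower (0.564%). After cyclic loess limma called 0 members (smallest adjusted p 0.0634) and 22 genes lower (0.177%).

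Promoters of the genes were inspected because E2F factors are the textbook regulators of this group. RefSeq windows of 300 bases (build GRCm38.p6, 250 bases before to 50 after an annotated start) were given for 40 of the 46 genes. An E2F-type match was any of TTTCCCGC, TTTCGCGC, TTTGCCGC or TTTGGCGC on either strand. It occurred in 15 of the 40 genes (37.5%), against 2.60% of 27025 genes with a window, and in 2.26% of all 32851 windows. The motif CCAAT, also on either strand, occurred in 24 of 40 genes (60.0%) against 41.1%, and TTTGAA, the core of the cell cycle homology element of mitotic genes, in 6 of 40 (15%) against 20.2%. E2F-type matches were found for 4 of 5 MCM genes, 4 of 8 licensing and firing genes, 4 of 7 polymerase genes, 2 of 9 clamp and joining genes, 1 of 6 chromatin genes and 0 of 5 nucleotide genes. At day 7 the median citalopram difference was -0.35 for the 15 genes with a match and -0.34 for the 25 without. A match describes letters in a window and is not evidence of binding.

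The following windows, 5′ to 3′ on the gene's strand and cut 30 bases after the start, show the genes with an E2F-type match that were lowest with citalopram at day 7, then the lowest and the highest gene without one. Capitals mark E2F-type matches. They are Mcm5 (chr8:75109259-75109538, plus strand), Rfc3 (chr5:151651179-151651458, minus strand), Pole2 (chr12:69228161-69228440, minus strand), Tcf19 (chr17:35516795-35517074, minus strand) and Slbp (chr5:33652545-33652824, minus strand).
Mcm5: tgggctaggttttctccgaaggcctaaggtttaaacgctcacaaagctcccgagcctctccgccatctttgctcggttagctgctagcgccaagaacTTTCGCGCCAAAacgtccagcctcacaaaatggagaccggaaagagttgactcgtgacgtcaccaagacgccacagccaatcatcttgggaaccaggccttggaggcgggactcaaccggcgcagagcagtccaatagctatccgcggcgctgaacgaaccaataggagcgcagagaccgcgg
Rfc3: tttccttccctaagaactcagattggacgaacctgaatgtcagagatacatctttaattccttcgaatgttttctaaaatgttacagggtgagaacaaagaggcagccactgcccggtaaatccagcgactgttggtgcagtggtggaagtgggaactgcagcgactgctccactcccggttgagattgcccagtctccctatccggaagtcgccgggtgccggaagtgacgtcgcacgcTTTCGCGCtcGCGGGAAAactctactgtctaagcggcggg
Pole2: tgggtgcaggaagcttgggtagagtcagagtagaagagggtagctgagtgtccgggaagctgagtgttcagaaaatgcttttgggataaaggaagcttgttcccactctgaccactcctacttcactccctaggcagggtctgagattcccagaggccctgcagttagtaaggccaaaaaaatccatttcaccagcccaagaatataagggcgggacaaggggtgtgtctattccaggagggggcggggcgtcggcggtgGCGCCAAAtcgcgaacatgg
Tcf19: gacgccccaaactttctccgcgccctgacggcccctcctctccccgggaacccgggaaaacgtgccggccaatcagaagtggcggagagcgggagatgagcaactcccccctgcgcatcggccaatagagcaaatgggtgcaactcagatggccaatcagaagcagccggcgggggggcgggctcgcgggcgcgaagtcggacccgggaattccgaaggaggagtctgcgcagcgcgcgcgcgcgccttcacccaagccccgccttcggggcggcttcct
Slbp: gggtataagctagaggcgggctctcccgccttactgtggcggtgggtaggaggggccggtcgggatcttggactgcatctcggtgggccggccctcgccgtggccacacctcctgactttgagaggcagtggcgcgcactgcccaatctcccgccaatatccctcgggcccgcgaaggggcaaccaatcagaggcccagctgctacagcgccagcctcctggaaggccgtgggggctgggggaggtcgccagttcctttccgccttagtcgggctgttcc
In Mcm5 the 2 matches overlap, in opposite orientations, and in Rfc3 1 lies just before the annotated start and the other begins at it. Tcf19, with the lowest difference at day 7, and Slbp, with the highest, hold none of the 4 spellings, and each holds 3 CCAAT motifs.

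**Figure D3:**
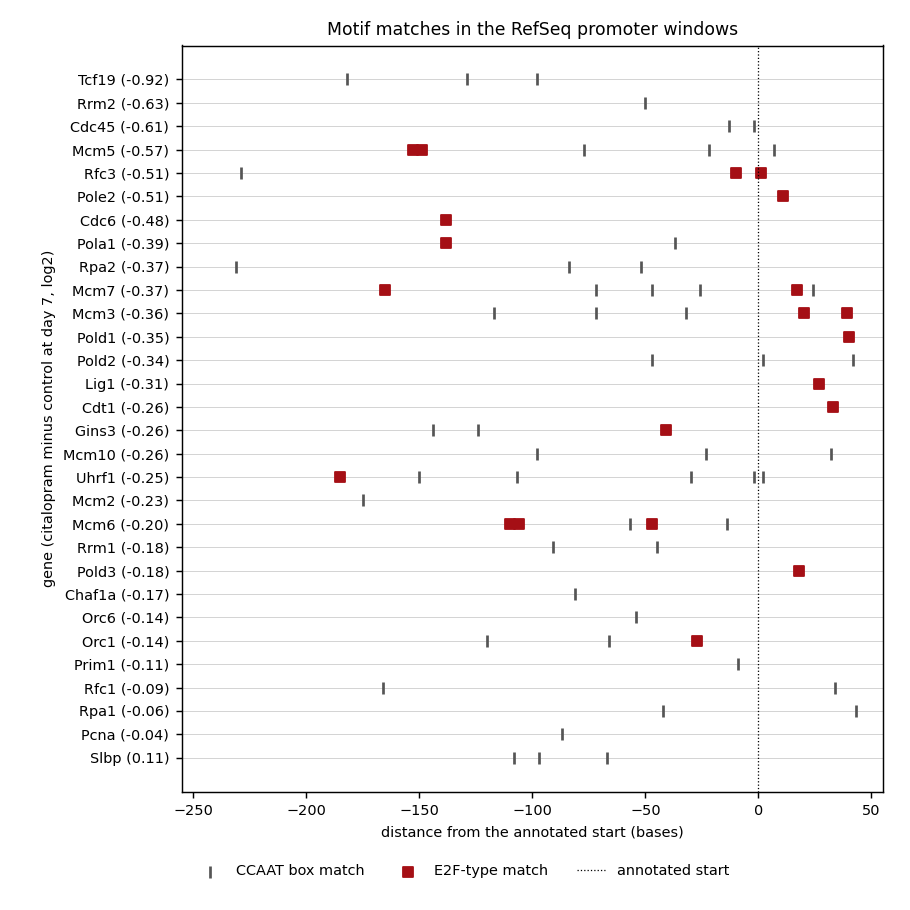
Positions of E2F-type (red squares) and CCAAT (grey bars) matches, in bases from the annotated start (dotted line), for the 30 genes with at least 1 of them; rows are ordered by citalopram minus control at day 7 on the log2 scale, given in brackets. Both the upper and the lower rows hold genes with and without a red square.

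Origin licensing and firing covers 10 genes, and all 10 were lower with citalopram at day 7, by 0.14 to 0.68. Orc1, the largest subunit of the origin recognition complex, read 7.90 and 7.62 in control and citalopram at day 3, and 7.62 and 7.48 at day 7. Orc6, its smallest subunit, read 10.72, 10.68, 10.86 and 10.71 in the same order. Both of these subunits differed by only -0.14 at day 7, the smallest differences of this role. Cdc6, the loading ATPase, differed by -0.13 and then -0.48, and Cdt1, its loading partner, by -0.02 and -0.26.

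The factors that activate the loaded helicase spread from -0.26 to -0.68 at day 7. Dbf4, the regulatory subunit of the kinase that phosphorylates the MCM complex, read 11.48 (control) and 11.17 (citalopram) at day 3, and 11.31 and 10.72 at day 7. Both citalopram arrays were below both controls, by 1.24-fold at day 3 and 1.51-fold at day 7. Cdc45, a subunit of the active helicase, read 9.32 and 9.17 at day 3 and 9.26 and 8.64 at day 7, so the array of citalopram at day 7 stood alone below the others (1.53-fold lower than control).

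The 3 GINS subunits of this role, Gins1, Gins2 and Gins3, did not move by the same amount. Gins4 was also measured but belongs to the list of other replication proteins described below. It differed by -0.13 at day 3 and -0.53 at day 7. Gins2 read 9.69 and 9.69 at day 3 and 10.03 and 9.35 at day 7, a day 7 difference of -0.68 that holds both a higher control and a lower citalopram value than at day 3. Gins1 differed by -0.09 and -0.34 and Gins3 by 0.01 and -0.26. Mcm10, which helps the helicase start, differed by -0.19 and -0.26.

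The 6 subunits of the MCM helicase form 1 ring, and all 6 were lower with citalopram at day 7, between -0.57 and -0.20. Mcm5 had the most negative difference: it read 11.03 (control) and 10.92 (citalopram) at day 3, and 10.93 and 10.36 at day 7 (1.49-fold lower). Mcm2 read 11.19 and 11.24 at day 3 and 11.25 and 11.02 at day 7. Only the last of these 4 arrays stood apart, and the day 7 difference was 1.17-fold.

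Mcm3 read 10.05 and 10.05 at day 3 and 10.11 and 9.75 at day 7, and Mcm7 read 11.31, 11.31, 11.35 and 10.98. For Mcm3 and Mcm7 the day 3 arrays were thus nearly equal, and the difference appeared at day 7 (-0.36 and -0.37). Mcm4 differed by -0.18 and -0.35. Mcm6 differed by -0.23 and -0.20, about alike at both days.

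Among the 9 polymerase and primase genes, 8 were lower with citalopram at day 3 and 9 at day 7. Pola1, the catalytic subunit of polymerase alpha, read 10.15 (control) and 9.54 (citalopram) at day 3 (1.52-fold lower), and 9.66 and 9.27 at day 7 (1.31-fold lower). Its control value was itself lower at day 7 than at day 3, so the 2 citalopram arrays lay below both controls but by a smaller step at day 7. Pola2, the accessory subunit of the same polymerase, differed by only -0.10 and -0.28.

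The primase subunits differed from each other. Prim1, the catalytic subunit, read 9.88 and 9.83 at day 3 and 9.75 and 9.64 at day 7, differences of -0.04 and -0.11. Prim2, the large subunit, differed by -0.24 and -0.51.

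Of the leading-strand polymerase epsilon, Pole, its catalytic subunit, differed by -0.24 and -0.45, and Pole2 by -0.23 and -0.51. Of polymerase delta, Pold1, the catalytic subunit, read 9.17 and 9.08 at day 3 and 9.47 and 9.12 at day 7. Here the day 7 control stood above the 3 other arrays. Pold2 read 11.18 and 11.30 at day 3 and 11.24 and 10.91 at day 7, so it was higher with citalopram at day 3 (0.11) and lower at day 7 (-0.34). Pold3 differed by -0.26 and -0.18.

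Replication factor C is a complex of 5 subunits, and its genes spread widely. Rfc5 read 10.77 (control) and 10.78 (citalopram) at day 3, and 10.88 and 10.06 at day 7 (1.76-fold lower), with no difference at day 3. Rfc4 read 11.85 and 11.53 at day 3 and 11.75 and 11.10 at day 7, lower by 0.32 and 0.65 on the log2 scale. Rfc3 read 10.57 and 10.11 at day 3 and 10.55 and 10.03 at day 7, so its 2 controls were close, its 2 citalopram arrays were close, and the difference was 1.38-fold at day 3 and 1.43-fold at day 7.

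Rfc2 had a like pattern with a smaller step (-0.30 and -0.35). Rfc1, the large subunit, differed by 0.00 and -0.09. The differences at day 7 within this complex thus ran from -0.81 to -0.09.

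Pcna, the sliding clamp that replication factor C loads, read 13.37 (control) and 13.38 (citalopram) at day 3, and 13.23 and 13.19 at day 7. The differences were 0.01 and -0.04, the latter the smallest of this role at day 7. Its 2 features on the array held the same value on each array, so they are 1 measurement. Fen1, the flap endonuclease that trims Okazaki fragments, read 8.58 and 8.30 at day 3 and 8.67 and 8.35 at day 7, with both citalopram arrays below both controls. Lig1, the ligase that joins them, differed by -0.15 and -0.31.

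Single-stranded DNA is covered by replication protein A. Rpa2 differed by -0.22 and -0.37, while Rpa1, the large subunit, differed by -0.14 and -0.06.

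The 5 nucleotide genes had the lowest median of the 6 roles at day 7, -0.55, with 4 of 5 at least 0.322 lower. Tk1, the thymidine kinase of the salvage pathway, read 9.63 (control) and 9.34 (citalopram) at day 3, and 9.96 and 9.23 at day 7. It was 1.22-fold and 1.67-fold lower with citalopram. A further feature for Tk1 gave differences of -0.28 and -0.74, next to -0.29 and -0.74 for the one used. From day 3 to day 7 the feature used differed by 0.33 in control and -0.12 with citalopram, and the further one by 0.51 and 0.06, so the sign with citalopram depended on the feature.

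Rrm2, the subunit of ribonucleotide reductase that is made in S phase, read 11.64 and 11.45 at day 3 and 11.52 and 10.88 at day 7 (1.55-fold lower). Rrm1, its partner subunit, read 12.61 and 12.62 at day 3 and 12.65 and 12.46 at day 7. The 2 subunits of the enzyme thus differed from control by -0.63 and -0.18 at day 7.

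Tyms, thymidylate synthase, differed by -0.33 and -0.55. Dut, the dUTPase that keeps uracil out of DNA, read 8.82 and 8.68 at day 3 and 8.98 and 8.55 at day 7. For both, the citalopram arrays lay below both controls.

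The last 6 genes package new DNA or regulate the programme. Tcf19, a PHD finger protein expressed as cells enter S phase, had the most negative citalopram difference of all 46 at day 7. It read 11.71 (control) and 11.67 (citalopram) at day 3, and 11.55 and 10.63 at day 7. The day 7 difference was 1.90-fold, and 3 of the 4 arrays lay within a narrow range.

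Chaf1b, a subunit of chromatin assembly factor 1, which places histones on new DNA, read 10.88 and 10.88 at day 3 and 10.79 and 10.09 at day 7 (1.63-fold lower). Chaf1a, the largest subunit of that factor, read 9.11 and 9.0 at day 3 and 9.09 and 8.92 at day 7, a difference of only -0.17. E2f1, an activating E2F factor, differed by 0.00 at day 3 and -0.40 at day 7. Uhrf1, which guides maintenance of DNA methylation behind the fork, differed by -0.13 and -0.25.

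Slbp, which binds the stem-loop of histone messenger RNA, was the exception. It read 11.34 (control) and 11.19 (citalopram) at day 3, and 10.68 and 10.79 at day 7. Both day 7 arrays lay below both day 3 arrays, and at day 7 citalopram was higher by 0.11. Its further feature read lower with citalopram at both days (-0.30 and -0.22), so the sign at day 7 depended on the feature, and with the mean of both features 46 of 46 genes were lower at day 7.

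**Figure D4:**
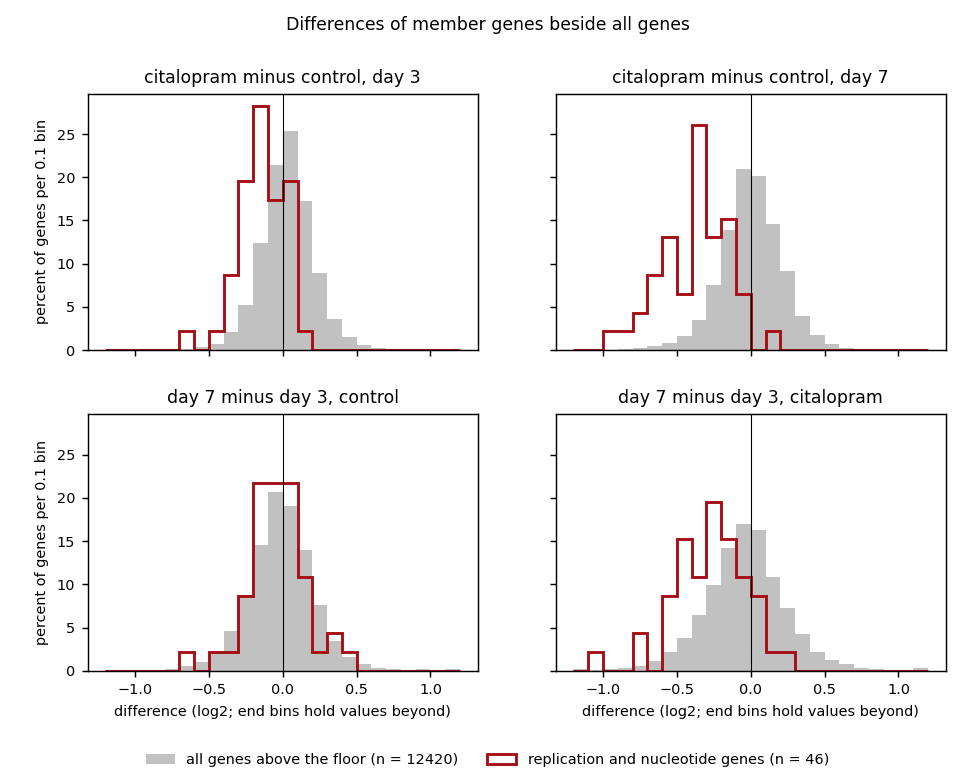
Distribution of log2 differences (horizontal axis, bins of 0.1) for the 46 genes (red outline) and for all 12420 genes above the floor (grey), as percent of genes, in the 4 pairwise comparisons. The red outline lies left of the grey for citalopram against control at day 7 (medians -0.35 and 0.00), less so at day 3 (-0.14 and 0.03), and over the grey for day 7 against day 3 in control (-0.04 and -0.01).

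Between day 3 and day 7 the untreated cells showed little common change in these genes. In control, 27 of 46 were lower at day 7 (52.8% of 12206 genes), with a median of -0.04. Only Slbp was past 1.5-fold lower (1.59-fold), against 1.13% of all genes, and 0 members were past it higher (1.16%). That call depended on the feature: the further feature of Slbp differed by -0.37 and the mean of both by -0.52, short of 1.5-fold. At least 0.322 higher were 3 genes, Gins1 (0.49), Gins2 (0.33) and Tk1 (0.33), against 6.06% of all genes, and 3 were as much lower (7.48%): Slbp, Pola1 (-0.49) and Mcm10 (-0.35).

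With citalopram, 40 of 46 were lower at day 7 than at day 3 (55.8% of 12194 genes), with a median of -0.25. At least 0.322 lower were 18 genes (13.5%), and 3 passed 1.5-fold (2.8%): Tcf19 (2.06-fold), Chaf1b (1.74-fold) and Rfc5 (1.64-fold). Higher by these amounts were 0 members (8.54% and 2.01% of all genes). Both day 7 arrays lay below both day 3 arrays for 12 of the 46 genes, against 28.7% of all genes. The day comparisons use the same 4 arrays as the citalopram comparisons and are not separate evidence. The scaling matters here: after each array was centred on its median, 38 members were lower in control and 44 with citalopram, and 72.8% and 79.1% of all genes were.

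For the day effect over both treatments limma called 0 of the 46 genes. The smallest adjusted p was 0.05002, for Slbp (-0.53 ± 0.11, SE), which missed the threshold. At an unadjusted p under 0.05, 13 members were lower (11.9% of all genes) and 1, Gins1, was higher (8.24%). Of all genes, 185 were called lower and 163 higher (1.49% and 1.31%). The count of members changed with the scaling, as did that of all genes. After quantile normalization limma called 8 members and 8.74% of all genes lower, and after cyclic loess 4 members and 4.67%. With arrays centred on their medians it called 18 members and 16.5% of all genes lower, and with a mean-variance trend 1 member and 1.54%.

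**Figure D5:**
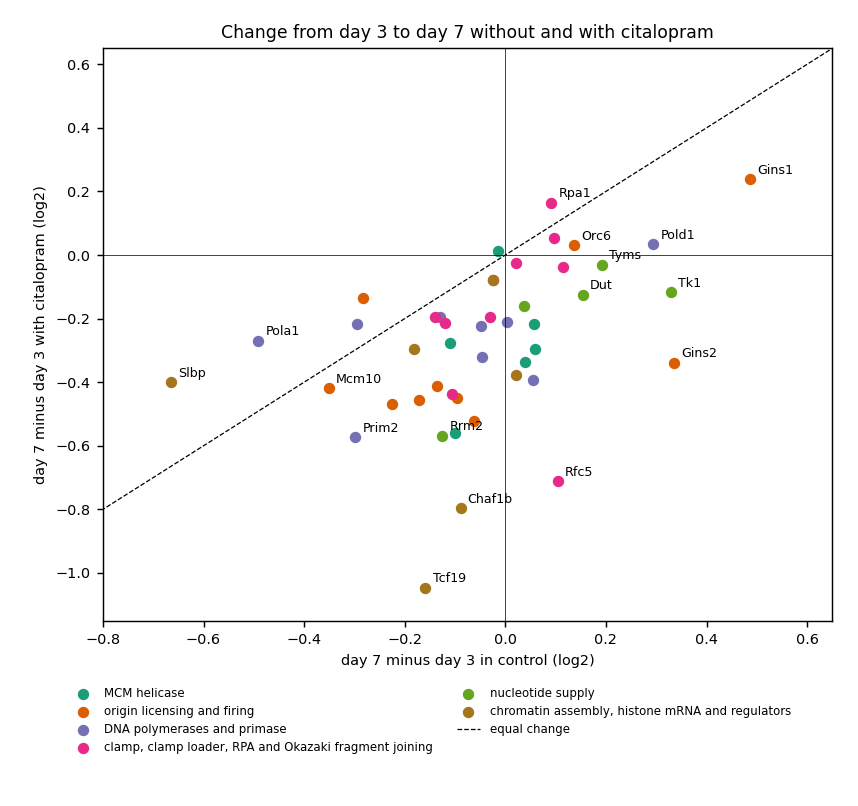
Day 7 minus day 3 on the log2 scale in control (horizontal axis) and with citalopram (vertical axis), 1 point a gene, coloured by role; the dashed line marks equal change. Of the 46 points, 40 lie below the dashed line, Rfc5, Chaf1b and Tcf19 far below it, and Slbp and Pola1 lie above it.

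Genes of the same processes outside the 46 were taken from 4 lists, to be read against all genes, of which 42.3% were lower with citalopram at day 3 and 48.7% at day 7, and 6.07% by at least 0.322 at day 7. Of 33 other replication proteins, 30 were lower with citalopram at day 3 (median -0.17) and 28 at day 7 (median -0.22), 9 of them by at least 0.322 at day 7 and 0 by 1.5-fold. Of 13 measured other chromatin factors of replication, 9 and 10 were lower (medians -0.07 and -0.11). Asf1b, a histone chaperone that hands histones to chromatin assembly factor 1, read 11.32 and 11.10 at day 3 and 11.35 and 10.46 at day 7, a day 7 difference of -0.89.

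Of 27 measured genes of E2F, Rb and G1/S control, 17 and 19 were lower (medians -0.05 and -0.14), 8 by at least 0.322 at day 7. Ccna2, cyclin A2, which drives S phase, read 12.50 and 12.35 at day 3 and 12.52 and 11.93 at day 7 (-0.59). Of 26 measured other nucleotide genes, among them the enzymes of purine and pyrimidine synthesis, 9 were lower at day 3 and 18 at day 7, with medians of 0.01 and -0.06 and 1 gene at least 0.322 lower at day 7. Limma called 0 genes of these 4 lists for citalopram; at an unadjusted p under 0.05 they held 9, 2, 3 and 1 lower genes in the order given, and 1 higher gene, of E2F, Rb and G1/S control, against 3.69% and 5.32% of all genes. The 1 of 26 other nucleotide genes is near that background.

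Markers were read as a check of the labelled cells. The osteoblast lineage list held 12 genes, of which 4 (Runx2, Bglap, Bglap2 and Spp1) had no feature with 1 symbol and were not read. Of the 8 measured, 7 lay above the floor, among them Col1a1, Col1a2 and Sparc, and Ibsp did not. Sp7 read 7.71 to 8.24, and Alpl lay near the floor (5.93 to 6.09). With citalopram 5 of these 7 were higher at both days, 1 lower at both and 1 of opposite sign. The summed log2 level of the 8 measured was 74.5 and 76.1 in control and citalopram at day 3, and 75.8 and 75.9 at day 7. Above the floor on any array were 0 of 6 adipocyte, 1 of 7 endothelial, 3 of 8 macrophage, 4 of 8 chondrocyte and 5 of 8 myogenic markers. Summed levels in the same array order were 33.7, 33.9, 33.8 and 33.1 for adipocyte, 39.1, 38.7, 39.0 and 38.8 for endothelial, 50.4, 51.1, 49.8 and 50.2 for macrophage, 53.2, 54.0, 53.9 and 53.1 for chondrocyte and 52.3, 52.3, 52.4 and 51.1 for myogenic markers. Of the 13 markers of other cell types above the floor, 3 were higher with citalopram at both days, 4 lower at both and 6 of opposite sign. Among the chondrocyte markers above the floor, Sox9 (10.50 to 11.01) and Col2a1 (9.37 to 10.60) read higher than Sp7. Col9a1 and Col10a1 read between 5.43 and 6.30. Of the macrophage markers above the floor, Lyz2 differed by 0.57 and 0.47, Cd68 by -0.01 and 0.15 and Cd14 by -0.04 and 0.15, while Ptprc, Adgre1 and Csf1r lay below the floor on every array. The part of such shifts in the replication genes was not tested.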

How the data were processed

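The authors deposited 1 log2 value for each of 35556 features on every array; that the scale is log2 was read from its range (3.90 to 15.5). The submitters' processing notes name Partek without a version. Of background correction, normalization and probe summary, the sources used here give nothing. If the authors equalised the arrays, a shift shared by most transcripts is hidden. Each treatment had 3 wells of 50000 seeded cells, per the labels' protocols, and 250 ng of total RNA was labelled; whether wells were pooled is not given.

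Genes were named from platform annotation: 21797 features carried 1 symbol, 1613 several and 12146 none. Each gene took its feature with the highest mean; 3 members had 2 features, and 0 rested on a feature with several symbols. Differences of log2 values were counted at 1.25-fold (0.322 on the log2 scale) and 1.5-fold, for all genes when the brighter array reached the 40th percentile. Limma 3.58.1 (R 4.3.3, lmFit, eBayes, two-sided, Benjamini-Hochberg over 12420 genes) fitted treatment and day; it was tested on simulated data. Nothing says that the arrays came from separate cultures, so its p-values measure only the spread between these arrays. In this fit a gene's own spread is how far its treatment change differs between the days. The eBayes step pools that spread with a prior variance estimated over all genes. The prior carried 7.16 degrees of freedom against 1 residual, so standard errors and p-values rest mostly on the pooled part. Alternatives were quantile normalization, median centring, cyclic loess, mean of features, features with 1 symbol, limma without a floor and a mean-variance trend. In a further one, members were counted only where the brighter array passed the same floor. No other percentile was tried as a floor. Values on every array are given for members past 1.5-fold in any comparison and, by role, those with the extreme mean change or level. The members and lists were chosen with earlier results of these data known. Scripts used Python 3.11.15, pandas 2.3.3, numpy 2.4.6 and matplotlib 3.10.9.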

Additional observations from a re-analysis of the deposited data

Results flagged for a closer look

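The citalopram difference had opposite signs at day 3 and day 7 for 11 of the 46 genes (23.9%), against 47.0% of all genes above the floor. It did so for 5 members under quantile normalization (46.7% of all genes), 6 with median centring (48.5%) and 3 under cyclic loess (46.8%). The day difference had opposite signs in control and with citalopram for 15 members (32.6%), against 35.5% of all genes. Under the same scalings that count was 14, 8 and 14 (30.4%, 17.4% and 30.4%), against 31.0%, 25.3% and 34.9% of all genes. With 1 array a group, these differences were not tested. For the first set the difference at day 7 minus that at day 3 was -0.82 for Rfc5, -0.71 for Chaf1b, -0.45 for Pold2, -0.40 for E2f1, -0.38 for Mcm7, -0.27 for Gins3 and Mcm2, -0.20 for Rrm1, -0.09 for Rfc1 and -0.06 for Pcna. Slbp, at 0.26, was the only gene of this set whose difference turned from lower to higher. On Slbp's further feature the citalopram differences were -0.30 and -0.22, with no change of sign. In 9 of the 11 the value at day 3 was under 0.05 in size; the 2 others are Pold2 (0.11) and Slbp (-0.15).

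The day difference with citalopram minus that in control was -0.67 for Gins2, -0.45 for Tk1, -0.36 for Mcm3, -0.28 for Dut, -0.22 for Tyms and for Pole, -0.15 for Rpa2, -0.05 for Rfc2 and 0.03 for Mcm6. For Rfc5 (-0.82), Pold2 (-0.45), E2f1 (-0.40), Mcm7 (-0.38), Mcm2 (-0.27) and Rrm1 (-0.20) it is the same number as above, from the same 4 arrays. Tk1 and Gins2 were each 0.33 higher at day 7 than at day 3 in control and -0.12 and -0.34 with citalopram. On Tk1's further feature the day differences were 0.51 and 0.06, with no change of sign.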

How the results depend on the processing

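The median over the 46 genes for day 7 against day 3 in control was -0.0252 under quantile normalization, -0.15 with median centring and -0.0220 under cyclic loess; with citalopram it was -0.40 with median centring. At least 1.5-fold lower at day 7 were, with median centring, 2 genes in control and 11 with citalopram, and 0 in control with the mean of features. With that centring 72.8% and 79.1% of all genes were lower at day 7. The share of all genes past 1.5-fold under the alternatives is not given here, so these counts have no background. The counts of members lower with citalopram ran from 36 to 44 at day 3 and from 45 to 46 at day 7 over the alternatives. The shares of all genes above the floor ran from 42.3% to 48.5% and from 49.2% to 60.9%. At day 7, 9 to 11 members passed 1.5-fold. For citalopram limma called 87 genes lower and 52 higher under quantile normalization (5 members lower), 70 and 33 with median centring (4 members) and 22 and 18 under cyclic loess, against 0 as deposited. For the day effect it called 1086 lower and 459 higher under quantile normalization (8 members lower). With median centring these counts were 2054 and 236 (18 members lower), and under cyclic loess 580 and 435 (4 members lower). Without a floor they were 84 and 98, and with a mean-variance trend 1 member was called lower. Median centring shifted the median of all genes by day from -0.01 to -0.12 in control and from -0.04 to -0.19 with citalopram, and members moved with it. The cause of the differences between scalings was not tested. The additive fit already compares the treatments within each day. No fit paired by replicate could be made, since each group has 1 array and the labels give no replicate numbers. Leaving out 1 array would use up the residual degree of freedom and was not run.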
